A study of Mus musculus with 22 samples.

Results

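The Krüppel-like factor genes described here are Klf2, Klf3, Klf4, Klf5, Klf6, Klf7, Klf9, Klf10, Klf11 and Klf13, 10 of the 21911 protein-coding genes annotated on the mouse chromosomes analysed. They are taken by name, with no measured value in the rule, although the list was drawn up with earlier results of these data known. For each gene, the peaks of acetylation of histone H3 at lysine 27 (H3K27ac) that overlapped the gene body or lay within 50 kb of it were taken from the peak lists of 3 libraries. Across the 10 loci these were 46, 50 and 49 peaks in replicates 1, 2 and 3, of 23410, 25963 and 23758 in the whole lists.

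H3K27ac is deposited on nucleosomes that flank active promoters and enhancers. The chromatin came from KL cells, the lineage-negative, Kit-positive and Sca-1-negative myeloid progenitors of bone marrow, sorted from male C57BL/6 mice of genotype scl-Cre-ERT +; Bcorfl/y, here called BcorΔE9-10. The mice were 3 to 6 months old when given tamoxifen at 1 mg per day for 5 days, and marrow was taken 20 weeks later. The tamoxifen-dependent Cre is driven by a stem cell enhancer of Scl, so that KL cells carry the Bcor deletion as the progeny of recombined stem cells. Excision of exons 9 and 10 leaves a truncated Bcor that cannot join its Polycomb complex. All 3 libraries are of this 1 genotype. The other 19 of the 22 samples of the series, which hold the other marks, inputs and genotypes, are not analysed here, so no value below compares mutant with wild-type cells.

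KLF proteins bind GC-rich and CACCC elements through zinc fingers at the end of the protein and differ in the cofactors their other parts recruit. Klf3 recruits the corepressor CtBP, and Klf9, Klf10, Klf11 and Klf13 recruit the Sin3A corepressor, whereas Klf2, Klf4, Klf5, Klf6 and Klf7 are mostly described as activators. The division is a textbook one with known exceptions, Klf4 and Klf13 among them. In blood, Klf1 directs red cell genes, Klf2 keeps T cells quiescent, Klf4 takes part in monocyte differentiation and Klf3 restrains B cell and erythroid genes.

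Peak calls were compared first with genes that mark the cells. All 7 myeloid progenitor markers, among them Kit, Spi1 and Mpo, had a peak within 2.5 kb of a transcription start site (TSS) in all 3 libraries. So did 9621 of 21911 protein-coding genes, or 43.9%. The mean folds of the 7 markers ran from 5.02 to 9.77, with a median of 6.87, below the median of 10.2 over the 9621 genes. None of 5 non-haematopoietic markers had one in any library, and of 4 markers of mature granulocytes or monocytes only Ngp had one, in replicate 2. Of 2 megakaryocyte markers Itga2b had one in all 3, at a mean fold of 2.98. Among the erythroid markers, Klf1 had a peak in 2 libraries, and Gata1 and Hbb-bs had none. Solving each fold and p-value for whole fragments gave a depth of 18.0 M, 18.9 M and 19.3 M reads for replicates 1, 2 and 3, and summits with fewer than 8, 8 and 9 fragments were not listed. The labels do not say whether the replicates came from separate mice, so that the spread between them may be technical.

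To show what lies under the peaks, the sequences of 4 promoters are given first, each as the 250 bases before the RefSeq start in GRCm38.p6, read 5′ to 3′ along the gene. Klf13 had the strongest promoter peak of the 10 genes and Klf4 the weakest of those with a peak in every library. Klf9 and Klf6, picked after their values were seen, show a promoter wholly inside a peak and one wholly outside. Capitals mark every match to CCNCNCCC, an 8-base form of the CACCC and GC-box element that KLF and SP proteins bind, on either strand, with overlapping matches joined.
Klf13 (chr7:63938916-63939165, minus strand): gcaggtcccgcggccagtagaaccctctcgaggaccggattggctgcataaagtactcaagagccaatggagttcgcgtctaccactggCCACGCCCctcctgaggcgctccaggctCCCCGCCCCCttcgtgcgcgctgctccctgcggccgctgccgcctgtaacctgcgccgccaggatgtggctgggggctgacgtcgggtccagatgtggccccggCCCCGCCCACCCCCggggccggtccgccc
Klf4 (chr4:55532476-55532725, minus strand): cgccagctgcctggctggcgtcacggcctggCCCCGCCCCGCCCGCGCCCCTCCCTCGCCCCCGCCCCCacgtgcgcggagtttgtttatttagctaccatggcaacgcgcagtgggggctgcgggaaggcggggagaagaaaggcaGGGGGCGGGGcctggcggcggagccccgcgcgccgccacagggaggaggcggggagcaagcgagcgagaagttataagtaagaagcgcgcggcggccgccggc
Klf6 (chr13:5861239-5861488, plus strand): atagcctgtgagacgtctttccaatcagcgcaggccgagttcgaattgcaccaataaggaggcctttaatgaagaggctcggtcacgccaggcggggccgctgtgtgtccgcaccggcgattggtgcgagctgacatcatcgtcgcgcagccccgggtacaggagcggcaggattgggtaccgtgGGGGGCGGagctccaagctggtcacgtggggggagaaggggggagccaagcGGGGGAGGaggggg
Klf9 (chr19:23140976-23141225, plus strand): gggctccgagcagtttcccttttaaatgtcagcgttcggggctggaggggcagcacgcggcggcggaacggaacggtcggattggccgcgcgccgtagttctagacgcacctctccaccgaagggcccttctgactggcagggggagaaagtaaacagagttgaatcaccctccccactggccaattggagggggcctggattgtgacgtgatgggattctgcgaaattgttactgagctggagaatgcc

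RefSeq promoters, from 250 bases before to 50 after the start, were found for 8 of the 10 genes, and none was printed or counted for Klf5 and Klf10. All 8 were rich in CpG. The number of CpG dinucleotides ran from 16 at Klf7 to 42 at Klf11, with a median of 30.5, beside a median of 7 over 27025 RefSeq promoters and 22 over the 7652 promoters of genes with a TSS-proximal peak in all 3 libraries. CCNCNCCC occurred in 7 of the 8, all but Klf9, and in 49.1% of all RefSeq promoters and 69.1% of those with a peak. Klf4, with the lowest fold, held 9 matches, Klf13 held 5 and Klf3 held 10. The GC box GGGCGG, searched on both strands and able to overlap CCNCNCCC, also occurred in 7 of the 8 promoters, in 35.9% of all promoters and in 66.8% of those with a peak. The number of matches did not follow the order of acetylation among the 8 promoters. Short forms of 4 other elements, searched on both strands, occurred in none of the 8. These were GATAA for GATA factors, held by 25.8% of all promoters and 15.04% of those with a peak, TGTGGT for RUNX factors, held by 16.9% and 12.05%, TTGCNNAA for C/EBP factors, held by 10.8% and 7.58%, and the cAMP response element TGACGTCA, held by 1.88% and 3.92%. The ETS element, as GGAAGT, occurred in Klf6 alone, beside 24.1% of all promoters and 31.3% of those with a peak.

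Of the 10 genes, 9 had a TSS-proximal peak, one within 2.5 kb of any annotated TSS of the gene, in all 3 libraries. Over all protein-coding genes this held for 9621 of 21911, or 43.9%. Klf5, which codes for a regulator best known in gut and other epithelia, was the exception, with a peak in replicates 2 and 3 only.

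The strength of the promoter peak, given as the fold enrichment of its summit over local background, divided the family. The 6 genes Klf13, Klf7, Klf6, Klf9, Klf10 and Klf11 had mean folds between 18.5 and 25.6. Klf2 and Klf3 lay near the median of all genes with a TSS-proximal peak, which was 9.07, 9.26 and 10.7 in the 3 libraries. Klf4 and Klf5 lay below it in every library in which they had a peak. Of the 10 genes, 7 were above the library's median in all 3 libraries. The matching share over all genes was not computed. The medians are over genes with a peak, whereas Klf5 had none in replicate 1. Over the 9 with a peak in every library the median of the mean folds was 20.5, beside 10.2 over the 9621 genes.

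**Figure D1:**
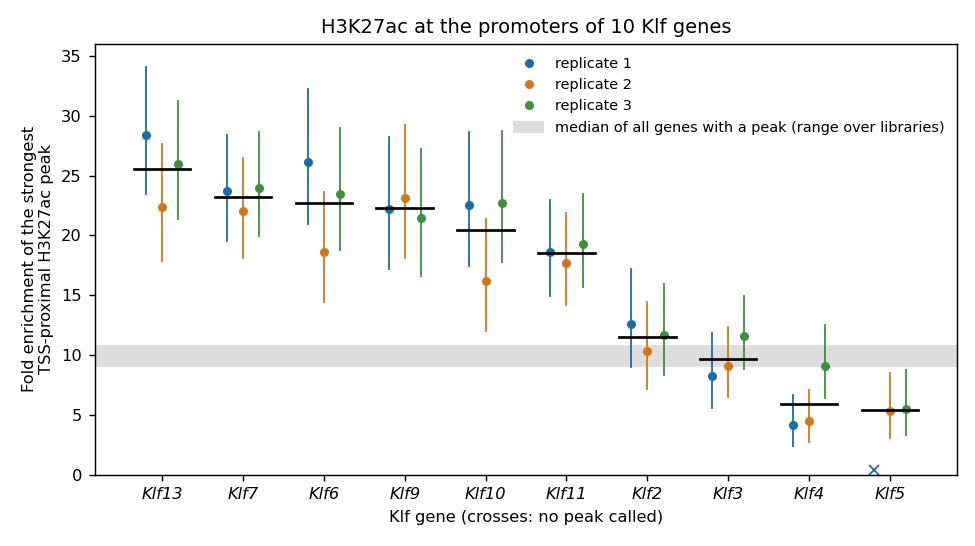
Fold enrichment of the strongest TSS-proximal H3K27ac peak (y axis) of each Klf gene (x axis), one point per library. Lines are 95% Poisson intervals for counting error and black bars are means. The grey band is the range of the medians of all genes with a TSS-proximal peak, and a cross marks where no peak was called. The 6 genes from Klf13 to Klf11 sit above the band in every library, with folds of 16.2 to 28.4, and Klf5 has a cross in replicate 1.

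Among the repressor members, Klf13, which drives Ccl5 in T cells and otherwise represses through Sin3A, had a strongest promoter peak with a fold of 28.4, 22.4 and 26.0 in replicates 1, 2 and 3 (25.6 ± 3.0, SD, n = 3). The summits held 114, 84 and 110 fragments, and their 95% Poisson intervals of 23.5 to 34.1, 17.9 to 27.6 and 21.4 to 31.3 overlapped each other. Here and below these intervals cover counting error only. On average its fold exceeded that of 96.2% of genes with a TSS-proximal peak in the same library.

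Klf9, a target of glucocorticoid and thyroid hormone receptors, had folds of 22.2, 23.2 and 21.5 (22.3 ± 0.85, SD, n = 3). Klf10, first described as an early gene induced by TGF-beta, had folds of 22.5, 16.2 and 22.8 (20.5 ± 3.7, SD, n = 3), with replicate 2 the lowest. Klf11, its closest relative, had folds of 18.6, 17.7 and 19.3 (18.5 ± 0.78, SD, n = 3). All values of these 3 genes stood above the medians of genes with a TSS-proximal peak in their libraries.

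Klf3 was the lowest of the repressors. Its folds were 8.29, 9.09 and 11.6 (9.66 ± 1.7, SD, n = 3), and its mean percentile among genes with a TSS-proximal peak was 49.7. In replicates 1 and 2 it lay just below the median of those genes and in replicate 3 just above it.

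Among the activator members, Klf7, studied mainly in neurons, had folds of 23.7, 22.0 and 24.0 (23.2 ± 1.1, SD, n = 3). Klf6, an immediate early gene and candidate tumour suppressor, had folds of 26.2, 18.6 and 23.5 (22.7 ± 3.8, SD, n = 3), with replicate 2 the lowest. Replicate 2 also gave the lowest value at Klf2, Klf7, Klf10, Klf11 and Klf13, but not at Klf3, Klf4 or Klf9. Klf6 and Klf7 both overlapped the strong repressors in range.

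Klf2 had folds of 12.6, 10.3 and 11.7 (11.5 ± 1.1, SD, n = 3). Its summits held 38, 32 and 37 fragments, and the Poisson interval in replicate 1 ran from 9.01 to 17.2. Its range did not overlap that of any of the 6 stronger genes.

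Klf4, one of the reprogramming factors, varied the most between libraries relative to its mean, also when each fold was divided by the median of its library (0.457, 0.486 and 0.848). The folds were 4.15, 4.50 and 9.09 (5.91 ± 2.8, SD, n = 3), from summits of 15, 17 and 36 fragments. The interval of replicate 3, 6.44 to 12.49, overlapped those of replicate 1, 2.43 to 6.67, and replicate 2, 2.73 to 7.06, only at their ends.

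At Klf5 the folds were 5.29 and 5.53 in replicates 2 and 3, from 15 and 16 fragments. In replicate 1 no peak was called, which gives no measured value, since the lists hold only regions past a q-value of 0.05.

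Ordered by mean, the 9 genes called in every library ran Klf13, Klf7, Klf6, Klf9, Klf10, Klf11, Klf2, Klf3 and Klf4, with a ratio of highest to lowest of 4.33. Of their 36 pairs, 30 kept the same direction in all 3 libraries and 6 did not. The 6 were Klf13 with Klf9, Klf7 with Klf6, Klf7 with Klf9, Klf6 with Klf9, Klf9 with Klf10 and Klf10 with Klf11. Neighbours from Klf7 down to Klf11 in the order therefore did not differ beyond their spread. The steps from Klf11 to Klf2, by 1.61-fold, from Klf2 to Klf3, by 1.20-fold, and from Klf3 to Klf4, by 1.73-fold, went the same way in each library. With 3 libraries an exact two-sided sign-flip permutation test cannot give p below 0.25, and adjusted over the 36 pairs the smallest p was 0.3. The ratio of Klf13 to Klf4 was 6.85, 4.97 and 2.86 in the 3 libraries. With peaks at −log10 q of 5 or more, Klf4 no longer had a peak in every library and the ratio of highest to lowest among the 8 genes that did was 2.65.

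For the comparison by role, Klf5 in replicate 1, with no peak, was entered at a fold of 1. The repressor members had a higher median promoter fold than the activators in each library, 22.2 against 12.6, 17.7 against 10.3 and 21.5 against 11.7. The ratio was 1.76, 1.72 and 1.84, with a geometric mean of 1.77 (exact sign-flip permutation test, two-sided, p = 0.25, n = 3, the smallest it can give). The groups overlapped widely, from 8.29 to 28.4 for repressors and from 4.15 to 26.2 for activators in replicate 1. Since the members and their division were chosen with earlier results known, the ratio is a description of these 10 genes. Leaving out Klf5 where it had no peak, an alternative chosen after seeing the data, lowered the ratio of replicate 1 from 1.76 to 1.22 and the geometric mean to 1.57.

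Strength and length of acetylation went together at some genes and not at others. Klf13 was both strong and long, with TSS-proximal peaks summing to 4180, 4027 and 3712 bp in replicates 1, 2 and 3, and a widest peak of 2675, 2515 and 2295 bp. That widest peak was longer, on average, than the widest of 99.3% of genes with a TSS-proximal peak. Klf9 carried nearly all its acetylation in 1 peak of 1732, 1776 and 1822 bp (1777 ± 45, SD, n = 3). Klf10 followed with a widest peak of 1529, 1545 and 1506 bp (1527 ± 20, SD, n = 3). On average the widest peaks of Klf13, Klf9 and Klf10 exceeded those of 90% of genes with a TSS-proximal peak, and all 3 are repressor members. The other repressors, Klf3 and Klf11, stood at mean percentiles of 83.0 and 25.9, beside 83.1 for the activator Klf2.

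Klf11 was strong but short. Its strongest peak spanned 466, 496 and 479 bp, and its 2 peaks summed to 850, 994 and 932 bp. The median summed length over genes with a TSS-proximal peak was close, at 901, 961 and 985 bp. Klf11 thus stood at a mean percentile of 87.1 for fold and 25.9 for its widest peak. Klf7 stood at 94.5 for fold and 60.9 for its widest peak, which measured 892, 857 and 727 bp. Its peaks summed to 1512, 1443 and 1387 bp, above the same medians.

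Klf3 was long at a median fold. Its TSS-proximal peaks summed to 2973, 4194 and 4252 bp (3806 ± 722, SD, n = 3). On average this length was above that of 98.9% of genes with a TSS-proximal peak, although the fold of Klf3 lay at their median. Part of that length belongs to the annotation, since Klf3 has 9 annotated start sites and peaks up to 9844 bp into the gene count as TSS-proximal. Klf6 reached 1810, 2493 and 2491 bp and Klf2 1889, 1864 and 1847 bp. Klf4 held 659, 252 and 1024 bp, and Klf5 held 369 and 381 bp in replicates 2 and 3. In replicates 1 and 2 Klf3 had a peak upstream of its 5′ end and another running across it. In replicate 3 these were called as 1 peak of 2141 bp.

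**Figure D2:**
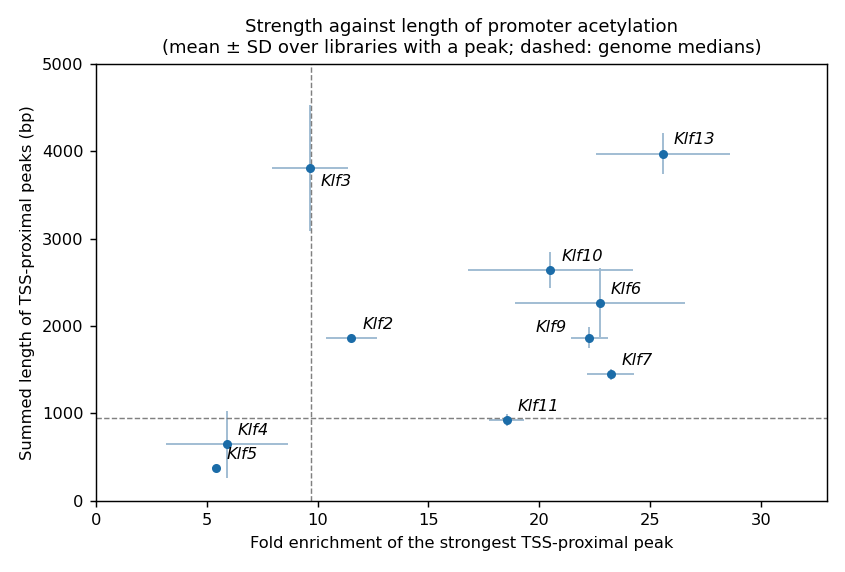
Fold of the strongest TSS-proximal peak (x axis) against the summed length of TSS-proximal peaks in bp (y axis) for each Klf gene. Points are mean ± SD over the libraries with a peak. Dashed lines are the mean over libraries of the medians of all genes with a TSS-proximal peak. Klf13 lies at the upper right, Klf3 high at the median fold, Klf11 at the right on the median length, and Klf4 and Klf5 at the lower left.

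The position of the peaks around the 5′ end differed between the genes. The summit of the strongest peak lay downstream of the annotated 5′ end at 8 of the 10 genes and upstream at Klf6 and Klf4, in every library with a peak. How often it lies downstream over all genes was not computed, so the count describes these 10 genes only. At Klf6 it lay 513, 503 and 464 bp upstream, and the downstream peak was weaker, with folds of 9.88, 5.25 and 10.0 against 26.2, 18.6 and 23.5. At Klf4 it lay 419, 460 and 447 bp upstream. Klf9 had its summit 153, 140 and 163 bp into the gene, Klf7 at 226, 230 and 230 bp and Klf11 at 294, 290 and 265 bp. Klf10 had it furthest in, at 962, 861 and 926 bp.

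At 4 of the 9 genes called in every library, Klf2, Klf4, Klf6 and Klf11, the annotated 5′ end lay outside every peak in all 3 libraries. The share over all genes with a TSS-proximal peak in all 3 libraries was 48.9%, so these 4 are near the background. The uncovered stretch between the flanking peaks measured 334, 367 and 343 bp at Klf6 (348 ± 17, SD, n = 3), 326, 245 and 240 bp at Klf11, and 289, 239 and 292 bp at Klf2. Klf4 had a peak on both sides in replicate 3 only, 288 bp apart.

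The printed promoters show the same contrast. The 300-base Klf9 promoter was covered by a peak over 100% of its length in all 3 libraries and the Klf6 promoter over 0%, although their folds were alike. The promoter of Klf13, at the top of the order, was covered over 7.33%, 32.7% and 32.3%, since its strong peaks lay on both sides. Klf4 was covered over 0%, 0% and 10.7%.

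**Figure D3:**
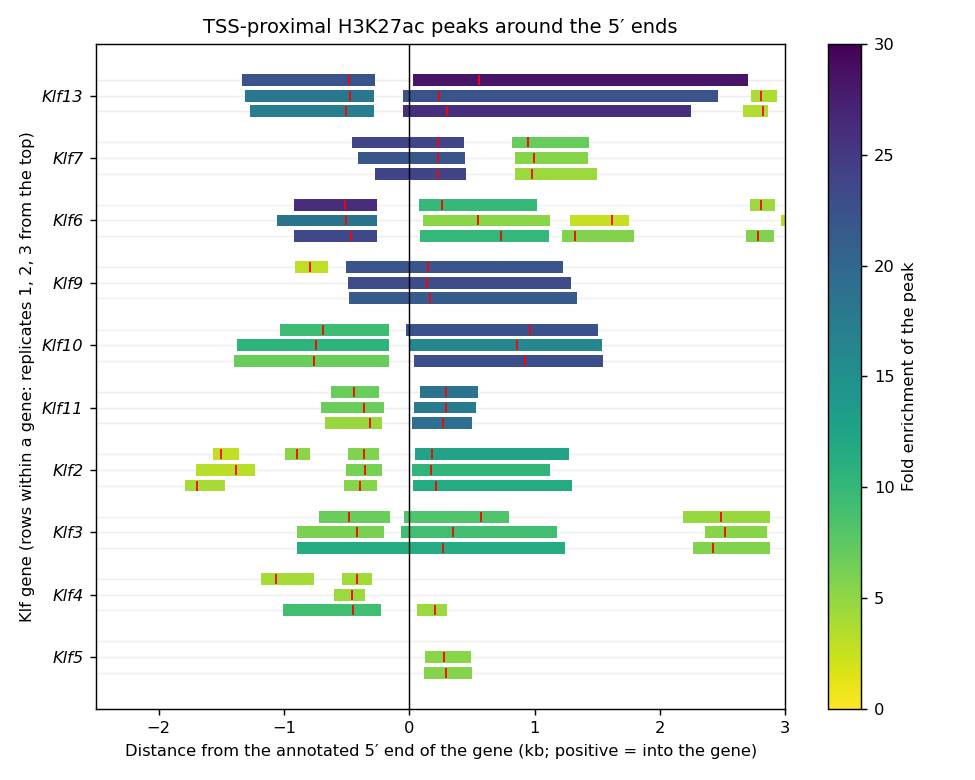
TSS-proximal H3K27ac peaks of each Klf gene (y axis, with replicates 1, 2 and 3 from the top) against the distance from the annotated 5′ end in kb (x axis, positive into the gene), drawn from 2.5 kb before to 3 kb after it, with bars coloured by fold and red ticks at summits. Peaks flank an uncovered 5′ end at Klf6, Klf11 and Klf2 and run across it at Klf9 and Klf7, and the strongest peaks of Klf6 and Klf4 lie upstream.

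The 10 loci held fewer distal peaks than TSS-proximal ones, which numbered 26, 27 and 27 in replicates 1, 2 and 3. Where a gene had both, its strongest distal peak was the weaker. Distal peaks, those over 2.5 kb from every annotated TSS of any gene, numbered 15, 14 and 15 over the 10 loci in replicates 1, 2 and 3 and merged into 25 regions. Of these 25 regions, 5 were called in all 3 libraries, 5 in 2 and 15 in 1. The 5 shared regions belonged to 4 of the 10 genes, Klf6, Klf7, Klf2 and, as a pair, Klf13. Over all protein-coding genes, 13.8% had at least 1 distal region in all 3 libraries, and of the 9621 genes with a TSS-proximal peak 21.9% had one. Klf4, Klf5, Klf9 and Klf11 had no distal peak in any library, and Klf10 had 1, in replicate 2 only.

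The sequences below are the 300 bases around the strongest distal summit of the 4 genes with the strongest distal peaks, in GRCm38 and on the plus strand, with matches to CCNCNCCC on either strand in capitals.
Klf6, 16 kb upstream (chr13:5845324-5845623, plus strand): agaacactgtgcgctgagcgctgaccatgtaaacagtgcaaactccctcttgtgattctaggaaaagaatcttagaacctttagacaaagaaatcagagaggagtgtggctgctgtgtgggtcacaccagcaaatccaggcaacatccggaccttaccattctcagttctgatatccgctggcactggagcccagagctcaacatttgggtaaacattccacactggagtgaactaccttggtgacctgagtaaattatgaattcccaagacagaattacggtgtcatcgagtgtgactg
Klf2, 50 kb upstream (chr8:72268784-72269083, plus strand): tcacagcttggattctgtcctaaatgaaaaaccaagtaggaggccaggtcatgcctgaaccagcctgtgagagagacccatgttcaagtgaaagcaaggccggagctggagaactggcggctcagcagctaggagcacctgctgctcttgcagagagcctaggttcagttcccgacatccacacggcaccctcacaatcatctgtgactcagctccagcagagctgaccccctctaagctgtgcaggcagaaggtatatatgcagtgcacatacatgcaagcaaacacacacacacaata
Klf7, intron (chr1:64052324-64052623, plus strand): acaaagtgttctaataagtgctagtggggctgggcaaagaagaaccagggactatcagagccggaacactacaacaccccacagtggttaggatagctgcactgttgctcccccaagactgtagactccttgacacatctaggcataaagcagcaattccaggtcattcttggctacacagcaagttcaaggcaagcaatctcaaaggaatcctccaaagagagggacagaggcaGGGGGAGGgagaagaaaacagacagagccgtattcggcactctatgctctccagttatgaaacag
Klf13, intron (chr7:63911790-63912089, plus strand): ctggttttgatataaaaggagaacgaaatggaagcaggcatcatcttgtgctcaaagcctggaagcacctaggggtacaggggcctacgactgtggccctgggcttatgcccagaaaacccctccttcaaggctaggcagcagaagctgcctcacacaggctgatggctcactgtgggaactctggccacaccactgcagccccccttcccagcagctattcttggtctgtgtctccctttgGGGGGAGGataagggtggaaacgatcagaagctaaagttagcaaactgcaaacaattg

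The Klf6 and Klf2 windows hold no match and the Klf7 and Klf13 windows 1 each. Around the strongest summits of all 2468 distal regions shared by the 3 libraries, 28.4% of windows of this length held one. The Klf13 window also holds GATAA, as did 25.4% of the windows of shared distal regions. CpG numbered 6, 4, 3 and 3 in the Klf6, Klf2, Klf7 and Klf13 windows, beside a median of 5 over the shared distal regions, and 16 to 42 in the promoters.

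The strongest distal region lay 16.0 kb upstream of Klf6, between genes, at chr13:5845199-5845839 of GRCm38. Its folds were 9.77, 14.4 and 9.83 (11.3 ± 2.6, SD, n = 3), from 33, 45 and 39 fragments. Its mean exceeded that of 97.2% of the 2468 distal regions called in all libraries, whose median was 4.94. Klf6 has no protein-coding gene within 50 kb, and its 5′ end is the closest protein-coding one. In replicate 2 this region was the highest of the 3 libraries while the promoter peak of Klf6 was the lowest, so that promoter and distal folds stood at 26.2 and 9.77, 18.6 and 14.4, and 23.5 and 9.83.

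Klf7 had a shared region in an intron at chr1:64051499-64052604, 69.8 kb into the gene. Its folds were 6.49, 6.62 and 7.80 (6.97 ± 0.73, SD, n = 3), with 18, 19 and 23 fragments. Klf13 had a pair of regions in an intron, 26.98 and 26.5 kb into the gene. The first, at chr7:63911404-63912110, had folds of 5.18, 7.75 and 7.80, and the second, at chr7:63912195-63912685, had folds of 4.63, 6.58 and 4.59. The closest protein-coding 5′ end, 4.92 kb from the first of these, is that of E030018B13Rik, which had no TSS-proximal peak in any library.

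Klf2 had a shared region 23.5 kb upstream at chr8:72295037-72296378, with folds of 5.80, 3.60 and 7.15 (5.52 ± 1.8, SD, n = 3). The predicted gene Gm10282, whose 5′ end is closer to it, had TSS-proximal peaks with folds of 4.84, 3.31 and 3.28. A stronger Klf2 region lay at the edge of the 50-kb window, at chr8:72268716-72269386, with folds of 7.17 and 8.13 in replicates 1 and 3. In replicate 2 a peak with a fold of 5.29 lay there too but just outside the window, 50025 bp from the gene against 49646 and 49771 bp in replicates 1 and 3. The closest protein-coding 5′ end to this stronger region is that of Ap1m1, 28.9 kb away, against 50.1 kb for Klf2.

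Klf3 had 5 distal regions, none in all 3 libraries, and the strongest, 58.5 kb from its 5′ end and beyond the 3′ end of the gene, was called in replicates 1 and 2 with folds of 5.20 and 3.77. For Klf4, which had no distal peak inside its window, a peak 119.1 kb upstream was called in all 3 libraries at folds of 10.6, 6.62 and 8.78, above the fold of the Klf4 promoter in replicates 1 and 2. It lies outside the window of the rule and was looked at after its rank among stitched regions was seen.

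**Figure D4:**
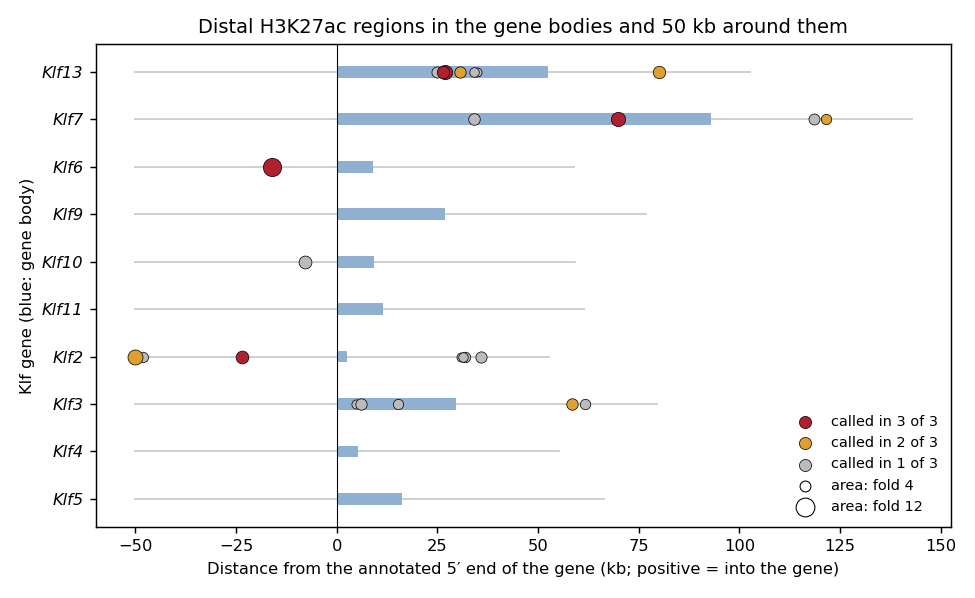
Distal H3K27ac regions of each Klf gene (y axis) by the distance of their strongest summit from the annotated 5′ end in kb (x axis, positive into the gene), with gene bodies in blue, the 50-kb windows as grey lines, the number of libraries as colour and the mean fold as area. The 5 regions in red, called in all 3 libraries, lie upstream of Klf6 and Klf2 and inside Klf7 and Klf13, and the rows of Klf9, Klf11, Klf4 and Klf5 are empty.

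Where a gene had both, its promoter peak was stronger than its strongest distal peak in 5 of 5, 6 of 6 and 5 of 5 genes in replicates 1, 2 and 3. The median ratio was 2.68, 2.82 and 2.64, with a geometric mean of 2.71 (exact sign-flip permutation test, two-sided, p = 0.25, n = 3, the smallest it can give). The lowest single ratio was 1.29, at Klf6 in replicate 2, and the highest 5.48, at Klf13 in replicate 1. The same comparison was not made over all genes. Genes with a TSS-proximal peak had median folds of 9.07, 9.26 and 10.7 in replicates 1, 2 and 3. Distal regions called in all 3 libraries had a median of 4.94. Whether the direction or size of the ratio is particular to the Klf genes was therefore not tested.

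A few further peaks in the windows, 5, 9 and 7 in replicates 1, 2 and 3, were near a TSS of another gene only. The strongest were upstream of Klf9, which had no distal peak. They spanned the start of the lincRNA 2410080I02Rik, 4.57 to 7.21 kb before the 5′ end of Klf9, with folds of 9.90, 10.3 and 9.43. In replicate 1 this was 1 peak of 2290 bp, in replicate 2 a peak of 951 bp beside one of 1549 bp, and in replicate 3 1 peak of 2077 bp. Rrm2, at the edge of the Klf11 window, had folds of 4.10, 5.00 and 4.92.

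Super-enhancers are long stretches of clustered acetylation, found here by joining neighbouring peaks into stitched regions and ranking these by summed fold times length. This gave 1383, 1083 and 1190 super-enhancers in replicates 1, 2 and 3. The paper ranked enhancers by tag count with Homer and reported far fewer in at least 2 of the 3 samples. Super-enhancers here are therefore not those of the paper. Of the 10 genes, 4 had a super-enhancer in at least 2 libraries, Klf13, Klf9 and Klf10 in all 3 and Klf3 in replicates 2 and 3. Among genes with a TSS-proximal peak in all 3 libraries the share was 18.4%. All 4 are repressor members. The ranks use fold times length, so this is not independent of the peak widths above. Klf6 and Klf7 passed in replicate 1 only, and Klf2, Klf4, Klf5 and Klf11 in none.

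Klf13 ranked 5th, 23rd and 84th of 11779, 12327 and 11525 stitched regions, and all of the signal came from its own TSS-proximal peaks. Klf9 ranked 84th, 81st and 231st, with 63.4%, 67.2% and 66.6% of the signal from its own promoter and the rest from the peaks at 2410080I02Rik. Klf10 ranked 303rd, 390th and 582nd, with 100%, 97.1% and 100% from its own promoter. Klf3 ranked 1547th, 911th and 830th, with 84.8%, 92.7% and 92.7% from its own TSS-proximal peaks. Those of Klf3 include peaks inside the gene, up to 9844 bp from its 5′ end in replicate 2, and not its 5′ promoter alone. Klf6 in replicate 3 ranked 1191st where 1190 regions were called, the closest miss. Its distal region lay too far from the promoter to be joined to it.

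Left without TSS-proximal peaks before stitching, none of the 10 genes had a super-enhancer in 2 libraries. The share of all genes that keep one under this setting was not computed. Whether the loss is particular to Klf genes was not tested. Ranking by summed fold or by summed length left Klf10 with none in any library, and ranking by summed fold gave Klf6, an activator member, one in 2 libraries, so that the 4 genes were then not all repressors. Stitching within 20 kb left Klf3 with none. Stitching within 5 kb added Klf6, in 3 libraries, and Klf7, in 2.

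**Figure D5:**
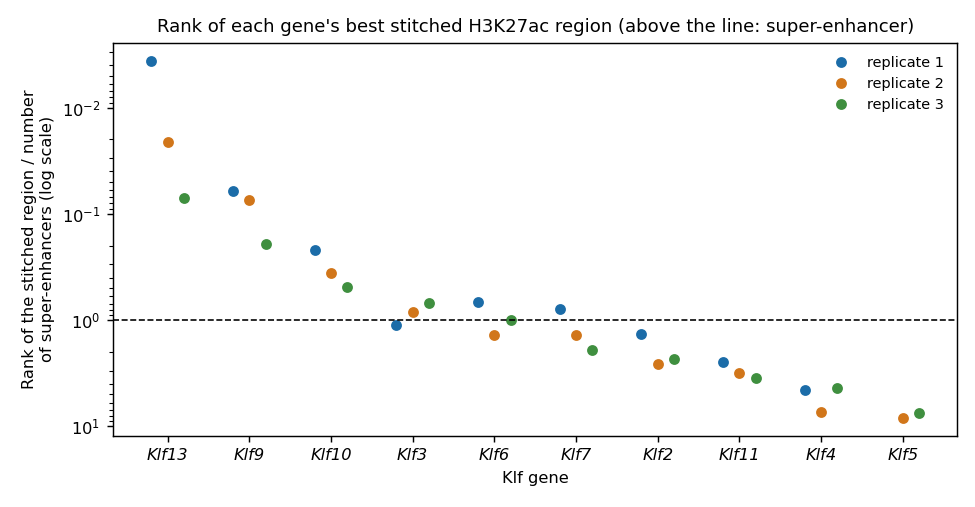
Rank of the best stitched H3K27ac region of each Klf gene divided by the number of super-enhancers in the library (y axis, log scale, inverted), one point per library, with the dashed line at 1. Klf13, Klf9 and Klf10 lie above the line in all 3 libraries, Klf3, Klf6 and Klf7 on both sides of it, and Klf2, Klf11, Klf4 and Klf5 below it, with no region for Klf5 in replicate 1. The points of Klf4 in replicates 1 and 2 are those of a distal peak 119.1 kb upstream, outside its 50-kb window, and not its promoter.

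Other family members were mixed. Of 7 other Klf genes, Klf16, another Sin3A-binding repressor, was called at its promoter in each library, with folds of 13.9, 9.74 and 18.4 (14.0 ± 4.3, SD, n = 3). Klf1, the erythroid factor, had folds of 5.29 and 6.07 in replicates 1 and 3, and Klf8 had 2.75 and 3.91 in replicates 2 and 3. Klf12, Klf14, Klf15 and Klf17 had none. Of 9 Sp genes, Sp5 to Sp9 had none. Sp1, Sp2, Sp3 and Sp4 were called in every library, with mean folds of 12.3 at Sp2 to 28.5 at Sp4. The highest of the Klf genes, Klf13 at 25.6, lay within that range.

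Genes for the cofactors through which KLF proteins act carried promoter acetylation throughout. All 10 genes listed, which code for the corepressors CtBP and Sin3 (Ctbp1, Ctbp2, Sin3a, Sin3b), the deacetylases Hdac1 and Hdac2, the acetyltransferases Ep300, Crebbp and Kat2b and the ubiquitin ligase Wwp1, were called at a promoter in every library. Their mean folds ran from 11.0 at Sin3b to 31.4 at Ep300, with a median of 13.4. The median was 20.5 for the 9 Klf genes and 10.2 for all 9621 genes called in every library. Those are 43.9% of the 21911 protein-coding genes.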

How the data were processed

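The measurements are ChIP-seq for H3K27ac in 3 libraries of sorted KL cells, taken as 1 group from the sample labels. Per the labels and the study's methods, the authors trimmed reads with cutadapt 1.7, aligned them with Bowtie2 to GRCm38 (mm10), removed duplicates as the file names state, and called peaks per library with MACS2 2.1.1. The caller's control and settings are not given in the sources used here. The deposited peak lists give fold enrichment as a ratio of the summit pileup to local background, −log10 p-values and −log10 q-values, a score and a summit offset. Every listed q-value was below 0.05, and the furthest peak reached 99.9% of its chromosome's length in the reference, so coordinates were used as deposited. Fold is not scaled between libraries, so ratios between genes, ranks and percentiles were formed within each library, while means and SDs over libraries are of unscaled folds and include differences of scale between libraries.

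From the lists, rows that share an interval were taken as 1 peak with its highest fold, and the few rows on scaffolds were left out. Peaks were assigned to GENCODE M21 genes (TSS-proximal within 2.5 kb of any annotated TSS, distal beyond that from all genes, in windows of 50 kb around gene bodies). Peaks within 12.5 kb were stitched, ranked by summed fold times length, and called super-enhancers past the point of slope 1 on the scaled curve. Fragments at each summit were solved from fold and p-value as whole numbers, to within 0.02 in −log10 p, which succeeded for 100% of rows in each library with 1 scaling factor in replicate 3 (0.983). Depth follows from the modal background, assuming fragments of 200 bp, the shortest peak. Counting intervals are 95% exact Poisson intervals. Reads are not molecules, so these cover counting error only. Tests were exact two-sided sign-flip permutations over libraries. Genes and lists, and the division into repressors and activators, were chosen with earlier results of these data known. Named are the 10 members, other Klf and Sp genes with or without peaks, cofactors, and neighbours with a peak or closest to a distal region. Some marker genes are not reported here. Scripts used Python 3.11.15, pandas 2.3.3, scipy 1.17.1 and pysam 0.24.0 and were tested on planted peaks. Alternatives are a stricter q-value, other windows, stitching, overlap and ranking, −log10 p in place of fold, and leaving out each library.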

Additional observations from a re-analysis of the deposited data

How the results depend on the processing

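No paired analysis was possible because the peak lists come from a single genotype, and replicate numbers pair no libraries. Of 52 values recomputed for the 6 comparisons, 47 kept their direction and, for counts, stayed within 1.5 times and, for the ratio of highest to lowest, within 1 SD, and 5 did not. The number of distal regions in all libraries, 5 in the report, was 9 with a TSS window of 1 kb, 3 with a window of 5 kb and 3 with 50% reciprocal overlap, and the first 2 follow from how the window defines a distal peak. The number of genes with a super-enhancer in at least 2 libraries fell from 4 to 0 with TSS-proximal peaks left out. The ratio of the highest to the lowest promoter value was 8.77 with −log10 p in place of fold, against 4.33, and under the same change the ratio of promoter to distal was 4.83 against 2.71 and that of repressors to activators 2.505 against 1.77. The cause was not tested. Leaving out each replicate gave 9 to 10 genes with a promoter peak, 6 to 7 shared distal regions, 3 to 4 genes with a super-enhancer, and ratios of 4.11 to 5.87 for highest to lowest, 1.74 to 1.80 for repressors to activators and 2.66 to 2.75 for promoter to distal. The alternatives for the repressor to activator ratio, 1.57 without missing peaks and 1.82 as a mean of log2 folds, were chosen after seeing the data. The 15 regions called in 1 library held 9 to 16 fragments at their summits.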
